A study of Rattus norvegicus with 90 samples.

Results

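Of 40071 rat transcripts measured in liver, kidney, and heart, 162 were lower in the liver at both 8 h and 24 h after a high dose of thioacetamide without being nearly specific to the liver. They were chosen on the measured values themselves. For each transcript, L was the log2 ratio of the mean CPM (estimated counts scaled to a fixed sum over the transcripts of a library) at the high dose to that in vehicle livers, with 1 CPM added to each mean. The median of this ratio over transcripts with at least 1 CPM in vehicle livers was then subtracted, 0.05 at 8 h and 0.68 at 24 h. A transcript was taken when L was -1.3 or less at both times and its mean CPM in vehicle livers was under 20 times the larger of its means in vehicle kidneys and vehicle hearts. Because of this shift, an L of -1.3 stands for a plain log2 ratio of -1.25 at 8 h and of -0.62 at 24 h. L met its limit for 295 transcripts at 8 h, for 1303 at 24 h, and for 204 at both, and the organ limit then left out 42.

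Thioacetamide is a liver toxicant that is made reactive mainly by hepatocyte oxidases, and the injury it causes starts around the central veins of the liver lobule. Kidney tubule cells share with hepatocytes many of the genes for solute transport, amino acid and lipid metabolism, and detoxification, while heart muscle shares fewer of them. In whole tissue, fewer cells of a type and less RNA per cell cannot be told apart.

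RNA was sequenced from 90 samples, 30 from each organ and 5 in each of 18 groups. Male Sprague-Dawley rats were bought at 10 weeks of age, and all carried a jugular vein catheter implanted 7 days before the experiment. They received vehicle (saline at 3 ml/kg) or thioacetamide at 25 mg/kg (low dose) or 100 mg/kg (high dose) by intraperitoneal injection. Tissue was taken after 8 or 24 h. The short groups were dosed in the morning and had no food afterwards. The long groups were dosed in the late afternoon. The study's methods give them food for the first 18 h and none for the last 8 h, which cannot both hold over 24 h. By those methods, short and long groups alike were without food for the last 8 h before tissue was taken. The 3 organs of a study day came from the same rats, but the labels name no rat. Library numbers rise by 30 from organ to organ in many groups, and the labels do not say what that marks, so the organs were compared separately. Kidneys and hearts were powdered whole.

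The estimated counts on transcripts and intervals summed to between 16332764 and 36303248 in a library. One vehicle liver at 24 h (library MS-1) held nearly the same counts as a low-dose liver at 8 h (MS-9): of the 15797 transcripts that reached 10 counts in one of them, 99.96% lay within 1 count of each other, against at most 3.82% in any other pair. MS-1 was left out of the selection and of all comparisons unless stated, and MS-9 was kept. The 162 transcripts summed to 5848 CPM in MS-1, and 139 of them were lower there than in all 4 other vehicle livers at 24 h. Those 4 helped to choose the transcripts and MS-1 did not, which favours lower values in MS-1. The identifiers could not be matched to genes with the tables used here, so transcripts are named by identifier and no gene roles, marker genes of the organs, or sequences are given. A shift from one transcript of a gene to another was not told apart from a fall of the gene. Not all of the 162 are separate signals. ENSRNOT00000075813 and ENSRNOT00000087750 gave the same fitted values in low-dose kidneys at both times, and each is counted on its own.

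The depth of the decrease varied widely among the transcripts, as these values, which chose them, describe. At 8 h, L ran from -3.46 to -1.304 with a median of -1.63. At 24 h, it ran from -4.74 to -1.32 with a median of -2.07. The 24 h value was lower than the 8 h value for 121 transcripts and higher for 41, and the difference was at least 0.5 downward in 68 and at least 0.5 upward in 10. Both values were -2 or less for 30 transcripts. Just inside the 8 h limit, L was -1.304, -1.306, and -1.311, and just outside it was -1.298, -1.298, and -1.296. At the 24 h limit, the nearest values were -1.32, -1.33, and -1.37 inside and -1.299, -1.291, and -1.290 outside. The organ ratio was 19.97, 19.9, and 18.99 inside its limit and 21.8, 22.4, and 23.2 outside.

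**Figure D1:**
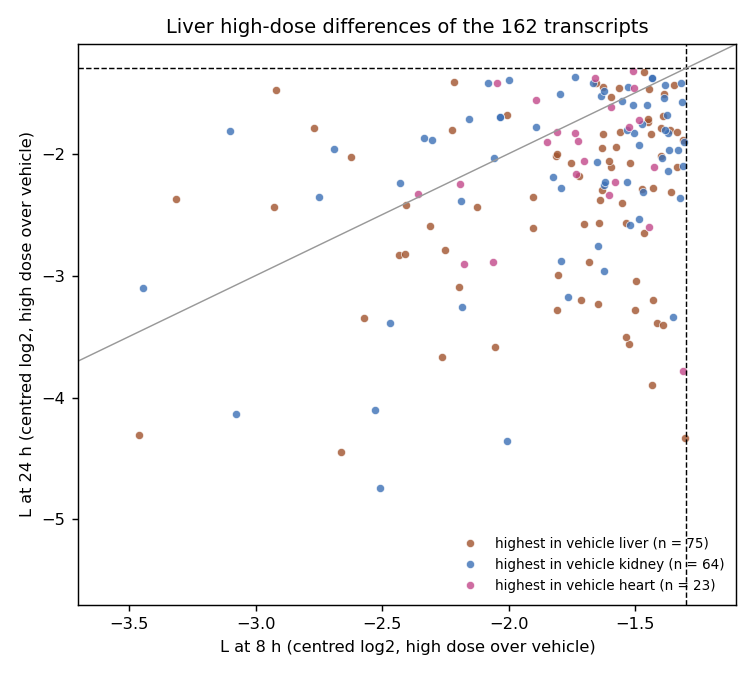
L at 8 h (x axis) and at 24 h (y axis) for each of the 162 transcripts, both on a centred log2 scale of high dose over vehicle, colored by the organ with the highest vehicle CPM. Dashed lines mark the limit of -1.3 that chose the transcripts. The grey line marks equal centred values, and 121 of the 162 points lie under it. The median subtracted was larger at 24 h, so a point under the line need not be lower at 24 h in percent of vehicle.

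In vehicle livers, the transcripts ranged from 2.22 to 3032 CPM with a median of 24.0 CPM, compared with a median of 9.95 CPM over the 13949 transcripts with at least 1 CPM there. Their annotated length had a median of 2396 bases, against 2208 bases for those 13949. The 6 most abundant made up 41.6% of their summed level, and the single most abundant 25.4%. The vehicle level was highest in the liver for 75 transcripts, the kidney for 64, and the heart for 23. In percent, these are 46.3%, 39.5%, and 14.2%, and over the 13949 transcripts the corresponding shares were 16.3%, 56.3%, and 27.5%. Kidney levels reached at least 1 CPM for 149 of the 162 and heart levels for 110, and 3 had no count in any vehicle heart.

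Livers were separated by dose. For each library, the level of each transcript was divided by the vehicle mean of the same organ and time, and the median over the 162 was taken. At 8 h, these medians lay between 87.1% and 105.997% in vehicle livers, between 35.9% and 51.01% at the low dose, and between 23.8% and 27.01% at the high dose. At 24 h, they lay between 85.1% and 107.8% in the 4 vehicle livers, between 49.4% and 72.3% at the low dose, and between 26.4% and 37.98% at the high dose. The same median over all transcripts with at least 1 CPM in vehicle lay between 117% and 127% at the low dose and between 101.6% and 105.5% at the high dose at 8 h. At 24 h, it lay between 137% and 143% at the low dose and between 150.4% and 184% at the high dose. The 3 dose groups did not overlap at either time, where the separation of vehicle from high dose is what the selection asked for. The mean at the low dose lay between the vehicle and high-dose means for 156 transcripts at 8 h and 148 at 24 h. MS-1 stood at 34.4% of the vehicle mean.

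**Figure D2:**
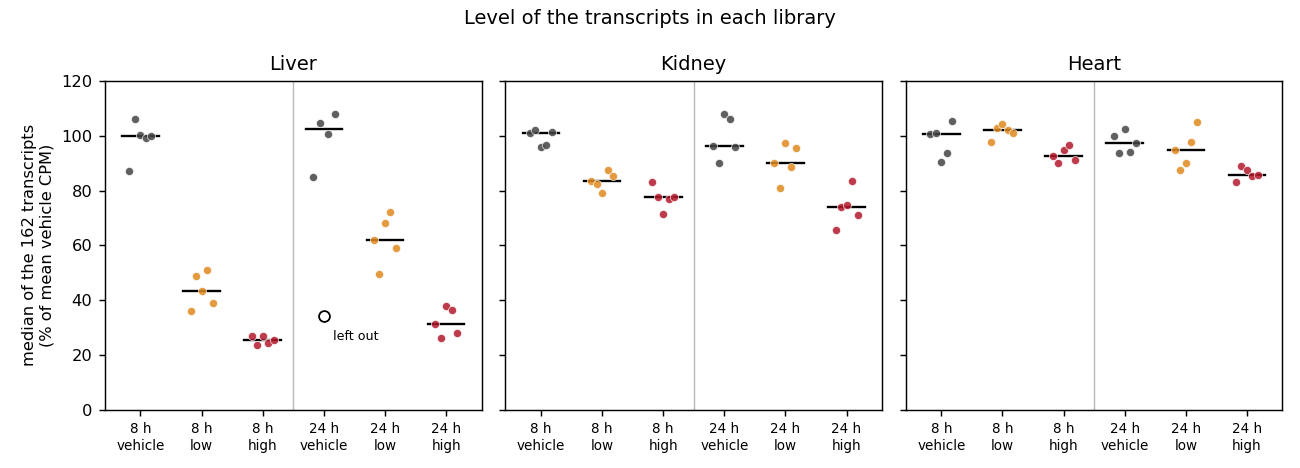
Median over the 162 transcripts of the level relative to the mean vehicle CPM of the same organ and time (y axis, percent), for each library (points) by time and dose (x axis), with the median of each group as a bar and MS-1 as an open circle. Liver medians fall to 23.8% to 37.98% at the high dose, kidney medians reach 65.8% to 83.4%, and heart medians 83.1% to 96.5%. Transcripts with no count in the vehicle hearts of a time were left out there.

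The transcript with the lowest sum of both L values was ENSRNOT00000010238, 3752 bases long. It measured 25.8, 21.2, 70.9, 34.8, and 36.97 CPM in vehicle livers at 8 h, and 1.63, 2.43, 3.63, 1.37, and 4.30 CPM at the high dose. At 24 h, it measured 44.7, 38.9, 39.3, and 42.1 CPM in vehicle livers and 3.64, 2.83, 2.55, 1.03, and 2.02 CPM at the high dose. It was mainly a liver transcript, with mean vehicle levels of 5.16 CPM in the kidney and 1.38 CPM in the heart. At the low dose, it measured 4.18, 3.51, 5.196, 8.07, and 2.23 CPM at 8 h and 9.58, 3.45, 16.5, 30.1, and 7.20 CPM at 24 h. All low-dose livers were below all vehicle livers at both times, and the low-dose livers at 24 h ran from 3.45 to 30.1 CPM.

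The next in that order, ENSRNOT00000044591, was unevenly expressed in untreated animals. Vehicle livers at 8 h had 8.52, 10.7, 9.96, 97.9, and 98.7 CPM, and those at 24 h had 119, 3.92, 114, and 9.43 CPM. High-dose livers had 3.04, 9.32, 12.5, 9.90, and 2.29 CPM at 8 h and 3.22, 3.19, 4.75, 0.755, and 1.81 CPM at 24 h. The vehicle livers thus formed a high and a low set at both times, and the low set overlapped the high-dose livers. A range of at least 10-fold across the 9 vehicle livers was found for 18 of the 162 transcripts (11.1%), against 5.99% of the 13949. Values between 0 and 0.5 estimated counts, which arise when reads are shared out among similar targets, occurred in at least 1 of 29 livers for 15 transcripts (9.26%), against 2.57% of the 13949.

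The most abundant of the 162 was ENSRNOT00000031586, 2621 bases long, which was about as abundant in the vehicle kidney (3223 CPM) as in the vehicle liver (3032 CPM) and low in the heart (16.3 CPM). Vehicle livers had 3534, 3237, 3695, 2847, and 2546 CPM at 8 h and 2715, 2517, 2939.9, and 3253 CPM at 24 h. High-dose livers had 1381, 925, 661, 1478, and 851 CPM at 8 h and 1949, 1863, 890.3, 1683, and 1544 CPM at 24 h. The groups did not overlap at either time. The second most abundant, ENSRNOT00000027834, fell just enough at 8 h to enter, and far more at 24 h. Its vehicle livers had 617, 745, 413, 589.7, and 509 CPM at 8 h and 613, 526, 514, and 289.8 CPM at 24 h. Its high-dose livers had 275, 229, 217, 259.6, and 224 CPM at 8 h, and only 25.4, 26.5, 34.3, 54.01, and 48.04 CPM at 24 h.

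The low dose was compared with vehicle to ask how far the decrease extended to the smaller exposure. To be called lower, a transcript needed an adjusted p-value up to 0.01 together with a fall of at least 0.60 on the natural-log scale (0.866 on the log2 scale) in a fit over all transcripts that passed the filter on low counts (edgeR quasi-likelihood test with Benjamini-Hochberg adjustment). At 8 h, 112 of the 161 of the 162 that were tested were called lower and none higher, 69.6%, where 4.1% of all 16341 tested were called lower. Their median log2 fold change was -1.48 with quartiles of -1.90 and -1.16, compared with a median of 0.00 over all tested. The low-dose livers are not part of the selection, but the vehicle livers are, so a vehicle mean that is high by chance lowers both doses, and the low dose is no independent check. Without MS-9, 64.8% of 162 were called lower.

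At 24 h, 89 of 161 were called lower and none higher, 55.3%, against 4.15% of all 16754 tested. The median log2 fold change was -1.17 with quartiles of -1.64 and -0.85, compared with 0.02 over all tested. This count rests on the set of vehicle livers. It was 3 with MS-1 kept, with 157 called lower among all tested, and 59 without the fourth vehicle liver (MS-20). Low-dose livers at 24 h also had 5.10% to 7.02% of their counts on genomic intervals, against 7.64% to 25.0% in the vehicle livers, and 26.7% to 27.8% of their transcript counts on the 20 most abundant liver transcripts, against 30.4% to 33.7%. In a fit with the interval share as a covariate, added after seeing the data, 16 were called lower in place of 89, beside 291 of all 17957 tested, and the median log2 fold change was -0.99. The part of the most abundant transcripts was not tested.

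By abundance, the number called lower at 8 h was 22 of 27 transcripts at 100 CPM or more in vehicle livers, 60 of 85 between 10 and 100 CPM, and 30 of 49 under 10 CPM. Over all transcripts tested, 12.5%, 5.28%, and 2.38% were called lower in these classes. The median log2 fold change of those tested among the 162 ran the other way, at -1.24, -1.49, and -1.77, against -0.48, -0.09, and 0.14 over all tested. With 1 CPM added to each mean, a scarce transcript needed a larger plain fall to be chosen. The fit shares the vehicle livers with the selection, so the selection favours this order. At 24 h, 15 of 27, 54 of 85, and 20 of 49 were called lower, against 26.6%, 4.53%, and 1.39% of all tested. By organ with the highest vehicle level, 51 of 74 liver-highest, 46 of 64 kidney-highest, and 15 of 23 heart-highest transcripts were called lower at 8 h, and 46 of 74, 34 of 64, and 9 of 23 at 24 h. Over all tested, 12.6%, 2.91%, and 1.98% of these organ classes were called lower at 8 h and 17.96%, 2.0002%, and 1.19% at 24 h. Their median log2 fold changes at 8 h were -1.50, -1.46, and -1.50 in that order. At 24 h, they were -1.23, -1.07, and -1.15. Over all tested, the medians in the same order differed more, at -0.45, 0.04, and 0.13 at 8 h and -0.45, 0.03, and 0.16 at 24 h. All 3 classes of the 162 were cut at the same limit against the same vehicle livers, which favours medians that lie close together. The 42 transcripts left out as nearly liver-specific gave 26 called lower of 41 tested at 8 h and 18 of 41 at 24 h, with medians of -1.59 and -1.42.

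The lowest fitted change at each time was that of 1 transcript. At 8 h, the scarce ENSRNOT00000079795 had 6.85, 1.99, 3.07, 8.70, and 2.07 CPM in vehicle livers and 0, 0.765, 0.161, 0.000485, and 0 CPM at the low dose (log2 fold change -4.74 ± 0.95 (SE), edgeR adjusted p = 0.0030). The groups did not overlap, though 2 low-dose livers had no count and a value of 0.000485 CPM is a part of a read. At 24 h, ENSRNOT00000015316 had 12.6, 103.2, 61.5, and 65.9 CPM in vehicle livers and 0.908, 1.45, 0.445, 1.91, and 1.19 CPM at the low dose (-6.21 ± 0.62, edgeR adjusted p = 0.00015). Its low-dose livers were below the high-dose livers, which had 3.02, 11.8, 3.48, 1.08, and 4.40 CPM, in mean level though not in every animal. ENSRNOT00000064429 had 5.96, 15.4, 6.84, and 10.8 CPM in vehicle livers and 0.182, 0.0537, 0.356, 0.615, and 0.261 CPM at the low dose (-5.48 ± 0.49, edgeR adjusted p = 9.5e-05). High-dose livers had a similar 0.364, 0.338, 0.399, 0.147, and 0 CPM, so this transcript was under 1 CPM at both doses.

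At the other end, ENSRNOT00000004901 and ENSRNOT00000067414 had the fitted low-dose changes nearest to 0 at 8 h. ENSRNOT00000004901 had 13.2, 2.52, 4.64, 6.57, and 10.9 CPM in vehicle livers and 0, 18.2, 0.0112, 0.00141, and 24.5 CPM at the low dose, so 2 animals were above every vehicle liver and 3 were near 0 (-0.16 ± 1.297, edgeR adjusted p = 0.94). ENSRNOT00000067414 had 13.3, 9.98, 16.3, 10.9, and 17.04 CPM in vehicle livers and an overlapping 12.6, 9.97, 16.4, 11.5, and 7.56 CPM at the low dose (-0.57 ± 0.21, edgeR adjusted p = 0.058). At 24 h, its low-dose livers, at 11.03, 8.95, 11.2, 13.8, and 9.78 CPM, were all under the vehicle livers, at 15.8, 16.4, 14.1, and 19.2 CPM (-1.104 ± 0.15, edgeR adjusted p = 0.00056). High-dose livers of this transcript were lower still at both times, from 3.33 to 5.87 CPM at 8 h and from 5.25 to 7.99 CPM at 24 h.

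Whether low-dose livers differed between 8 h and 24 h was tested directly on the 10 low-dose samples, none of which took part in the selection. Of 159 transcripts tested, 13 were called higher at 24 h than at 8 h, 8.18%, against 1.92% of all 16792 tested. Another 3 were called lower at 24 h, 1.89%, near the 2.22% of all tested, and leaving out single livers gave 0 to 3. The median log2 difference was 0.38 with quartiles of -0.04 and 0.75, compared with -0.03 over all tested. Without MS-9, 13 were called higher and 1 lower. The interval covariate gave 8 called higher. The times also differed in the hour of dosing and in access to food after dosing, though both lacked food for the last 8 h. In vehicle livers, the median log2 difference, 24 h over 8 h, was 0.10. Both vehicle groups helped to choose the transcripts, so this is a description.

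The largest rise was that of ENSRNOT00000073886, a short transcript of 576 bases with more in the kidney (71.5 CPM) than in the liver (18.2 CPM). Low-dose livers had 2.08, 5.01, 2.86, 6.51, and 3.99 CPM at 8 h and 11.4, 17.2, 15.8, 19.04, and 21.3 CPM at 24 h (log2 difference 1.85 ± 0.29 (SE), edgeR adjusted p = 0.0018). All low-dose livers at 24 h were above all those at 8 h, and they overlapped the vehicle livers, at 20.2, 16.9, 21.9, and 21.4 CPM. ENSRNOT00000082551 followed the same course, from 6.15, 11.5, 7.95, 18.5, and 14.6 CPM at 8 h to 26.9, 32.6, 46.5, 49.4, and 46.9 CPM at 24 h (1.59 ± 0.30, edgeR adjusted p = 0.0041). Its vehicle livers had 33.7, 35.3, 42.3, 47.9, and 35.8 CPM at 8 h and 49.98, 40.98, 41.7, and 45.3 CPM at 24 h, so the low-dose group lay wholly below vehicle at 8 h and overlapped it at 24 h. At the high dose, ENSRNOT00000082551 had 17.8, 13.5, 17.3, 35.8, and 10.4 CPM at 24 h, all below vehicle. Both overlaps are in CPM. In low-dose livers at 24 h, the median over all transcripts with at least 1 CPM in vehicle was 137% to 143% of the vehicle mean. CPM is not adjusted for that shift, so an overlap is not shown to be a return to the vehicle level.

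Among the 3 transcripts that went further down, ENSRNOT00000015316 had 37.4, 7.23, 6.75, 2.82, and 8.80 CPM in low-dose livers at 8 h, all above its values at 24 h given above (log2 difference -3.55 ± 0.67, edgeR adjusted p = 0.0041). The highest of these, 37.4 CPM, was in MS-9. ENSRNOT00000064429 had 2.02, 1.08, 0.897, 1.11, and 1.04 CPM at 8 h, again without overlap (-2.16 ± 0.48, edgeR adjusted p = 0.0086). The last was ENSRNOT00000027834, with 271, 389.6, 372, 368, and 316 CPM at 8 h and 301, 127, 209, 184, and 122 CPM at 24 h, where the groups overlapped in 1 animal (-1.05 ± 0.23, edgeR adjusted p = 0.0077).

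**Figure D3:**
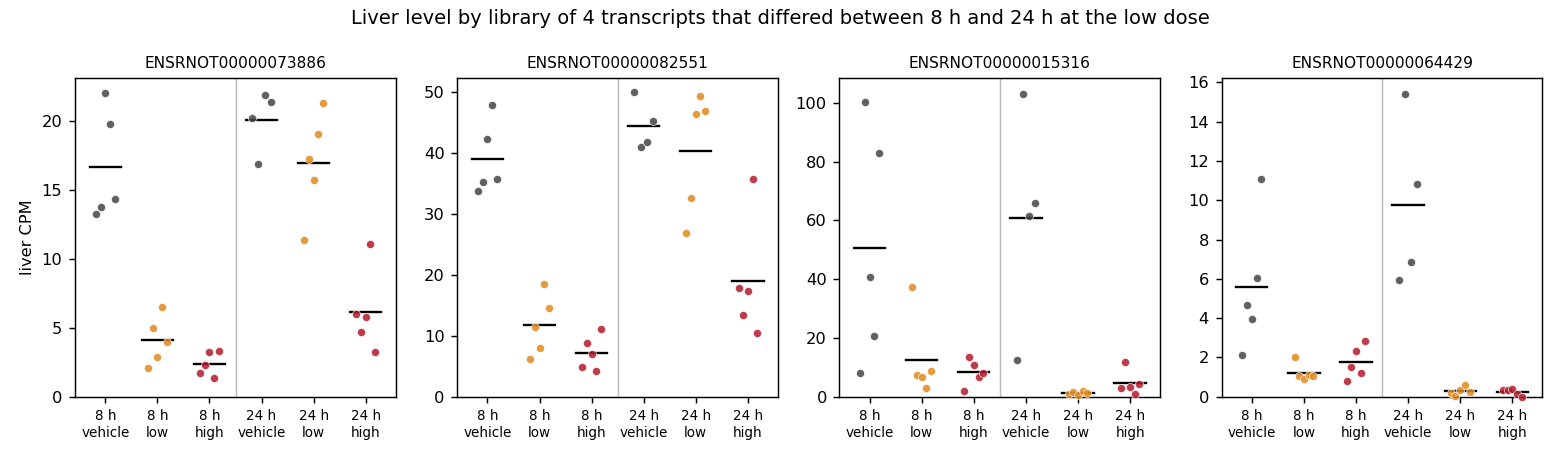
Liver CPM (y axes, linear, from 0) of the 2 transcripts with the largest rise and the 2 with the largest fall from 8 h to 24 h at the low dose, in each library (points) by time and dose (x axis), with group means as bars. ENSRNOT00000073886 and ENSRNOT00000082551 overlap the vehicle livers at 24 h after the low dose, whereas ENSRNOT00000015316 and ENSRNOT00000064429 go below their low-dose level at 8 h. CPM is not adjusted for the shift over all transcripts.

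The low-dose effect at 24 h minus that at 8 h was also tested as an interaction, called up to an adjusted p-value of 0.01 whatever its size. It was called for 3 of the 162, all with a smaller decrease at 24 h, 1.85%, against 0.535% of all 17931 tested that were called in this direction. The vehicle livers of both times helped to choose the transcripts, and the limit was stricter in plain ratio at 8 h. A vehicle mean that is high by chance at 8 h can favour this direction, so the share is no independent check. The lowest adjusted p-value was that of ENSRNOT00000027432, mostly a kidney transcript (110.4 CPM in the vehicle kidney, 21.2 CPM in the vehicle liver, and 0.03 CPM in the vehicle heart). At 8 h, it had 23.3, 18.7, 20.4, 21.9, and 18.4 CPM in vehicle livers and a tight 8.26, 10.03, 9.23, 9.09, and 8.18 CPM at the low dose. At 24 h, vehicle livers had 25.0, 20.3, 18.2, and 24.8 CPM and low-dose livers 33.9, 21.1, 19.8, 28.98, and 21.6 CPM. Thus in CPM, not adjusted for the shift over all transcripts, the low-dose group was below vehicle without overlap at 8 h and overlapped it at 24 h. With MS-1 kept, no interaction was called among the 162, with 35 at an unadjusted p-value under 0.05, and leaving out single livers gave from 1 to 5.

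In the kidney, the 162 transcripts were tested in samples that set no part of their liver decrease. The vehicle kidneys, like the vehicle hearts, entered the selection through the organ limit alone. A vehicle mean that is high by chance can help a transcript past that limit and also lowers its change, which was not tested. After the high dose, 10 of 154 tested were called lower and none higher at 8 h, 6.49%, against 0.409% of all 18597 tested. At 24 h, 22 of 154 were called lower and none higher, 14.3%, against 2.04% of all 18967 tested. The median log2 fold change was -0.31 at 8 h and -0.51 at 24 h, compared with -0.03 and 0.02 over all tested. The tested members were also more abundant than most, with median vehicle kidney levels of 18.4 CPM at 8 h and 18.5 CPM at 24 h, against 12.7 and 11.6 CPM over all tested, and the part of this in the counts was not tested.

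Of the 29 called lower in the kidney at either time, 3 were called at both, 30.0% of those at 8 h and 13.6% of those at 24 h. Over all tested, 33 were called lower at both times, 43.4% of the 76 at 8 h and 8.53% of the 387 at 24 h. Kidney-highest transcripts gave 7 of the 10 calls at 8 h and 18 of the 22 at 24 h, from 64 tested. The 70 liver-highest transcripts that were tested gave 3 and 2 calls, and the 20 heart-highest ones gave 0 and 2. Over all tested, 0.542% of kidney-highest, 0.324% of liver-highest, and 0.164% of heart-highest transcripts were called lower at 8 h, and 2.73%, 2.46%, and 0.498% at 24 h. Median log2 fold changes in the same order of organs were -0.43, -0.25, and -0.16 at 8 h and -0.69, -0.35, and -0.05 at 24 h. The 8 h count moved with single samples, to 17 without the second vehicle kidney, to 4 without the second high-dose kidney, and to 6 without the fourth vehicle, the third high-dose, or the fourth high-dose kidney. Libraries numbered above 90 made up 3 of 5 high-dose and 1 of 5 vehicle kidneys at 8 h, and with that split as a covariate 8 of 159 were called lower at 8 h and 22 of 159 at 24 h.

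At 8 h, the largest kidney decrease was that of ENSRNOT00000066597, 583 bases long and mainly a liver transcript (22.5 CPM in the vehicle liver and 2.83 CPM in the vehicle kidney). Vehicle kidneys had 2.85, 3.65, 3.09, 3.62, and 3.01 CPM, low-dose kidneys 2.21, 1.84, 1.33, 2.42, and 1.44 CPM, and high-dose kidneys 1.12, 1.06, 0.594, 0.700, and 0.674 CPM. The 3 groups were in order of dose without overlap, with a log2 fold change of -1.95 ± 0.25 (SE) at the high dose (edgeR adjusted p = 0.0011) and -0.86 ± 0.22 at the low dose (edgeR adjusted p = 0.12). By 24 h this order was gone, with 2.12, 3.14, 2.26, 2.18, and 2.42 CPM in vehicle and 3.13, 2.12, 3.87, 3.96, and 2.28 CPM in high-dose kidneys (0.23 ± 0.25, edgeR adjusted p = 0.61). ENSRNOT00000014054 had 3.28, 2.82, 5.23, 3.82, and 3.71 CPM in vehicle and 0.701, 1.04, 0.756, 0.549, and 1.86 CPM in high-dose kidneys at 8 h, also without overlap (-1.90 ± 0.34, edgeR adjusted p = 0.0086).

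The lowest fitted kidney changes were further from 0 at 24 h than at 8 h, which was not tested. ENSRNOT00000081912 had 10.5, 9.05, 12.97, 15.2, and 10.1 CPM in vehicle kidneys, 3.74, 2.23, 2.37, 3.21, and 6.27 CPM at the low dose, and 0.289, 0.188, 1.07, 1.14, and 0.685 CPM at the high dose (-4.23 ± 0.43 at the high dose, edgeR adjusted p = 0.00011). ENSRNOT00000012948 had 100.7, 91.2, 88.5, 87.3, and 87.7 CPM in vehicle kidneys, 25.8, 5.30, 17.2, 22.9, and 30.4 CPM at the low dose, and 5.82, 7.78, 5.70, 10.1, and 4.89 CPM at the high dose (-3.84 ± 0.21 at the high dose, edgeR adjusted p = 1.8e-06). For both, the groups followed the dose without overlap except that 1 low-dose kidney of ENSRNOT00000012948 lay within the high-dose range. At the low dose, their log2 fold changes of -1.77 ± 0.30 and -2.23 ± 0.36 missed the limit (edgeR adjusted p = 0.039 and 0.033). The unevenly expressed liver transcript ENSRNOT00000044591 was abundant and even in the kidney, where vehicle samples had 371, 213, 219, 259, and 262 CPM and high-dose samples 35.6, 23.003, 13.4, 42.1, and 15.8 CPM at 24 h (-3.45 ± 0.35, edgeR adjusted p = 0.00011).

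**Figure D4:**
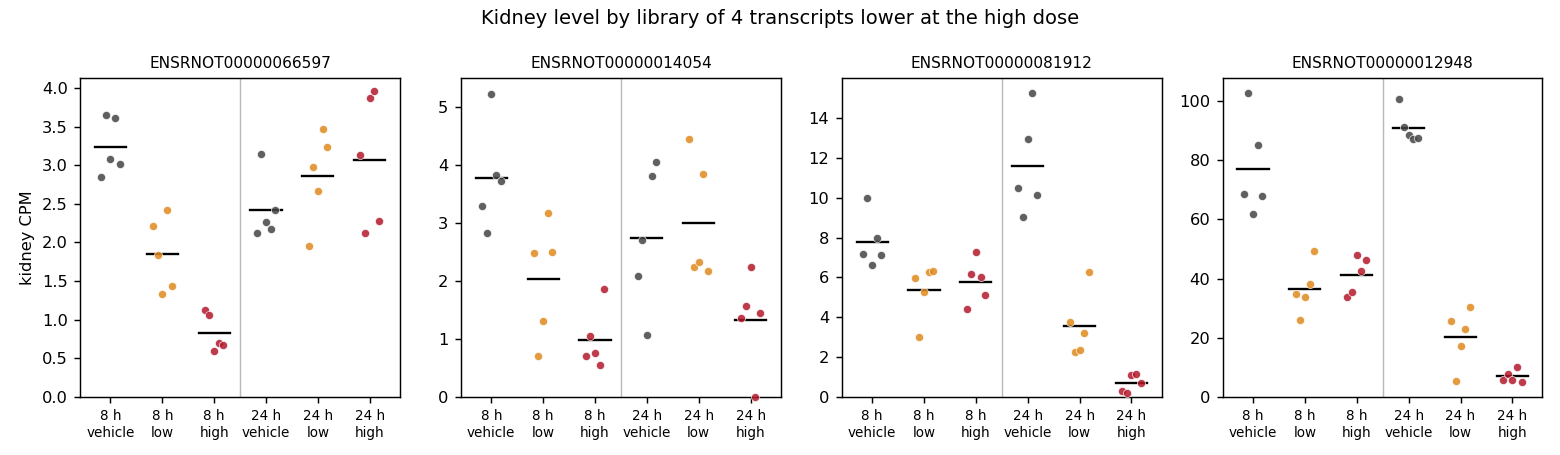
Kidney CPM (y axes, linear, from 0) of the 2 transcripts with the largest called decrease at 8 h (left pair) and the 2 at 24 h (right pair) after the high dose, in each library (points) by time and dose (x axis), with group means as bars. ENSRNOT00000066597 is low at 8 h only, whereas ENSRNOT00000081912 and ENSRNOT00000012948 are lowest at 24 h, where the high-dose means are 0.675 and 6.86 CPM.

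The low dose gave no calls in the kidney at the same limits. At 8 h, 0 of 154 were called lower by edgeR, as were 0.0425% of all 18829 tested, and DESeq2 called 2. At an unadjusted p-value under 0.05, 48 of the 154 (31.2%) were lower and none higher, against 5.4% of all tested that were lower. At 24 h, 0 of 153 were called by edgeR, with 0.0216% of all 18559 tested, and DESeq2 called 6. There, 36 (23.5%) were lower and 2 higher at an unadjusted p-value under 0.05, against 5.58% of all tested that were lower. The median log2 fold changes were -0.28 and -0.21. At 8 h, the low-dose kidneys, at 79.2% to 87.5% of the vehicle mean by the median over the transcripts, did not overlap the vehicle kidneys, at 96.0% to 102.1%. At 24 h, the low-dose kidneys ranged from 80.8% to 97.3% and overlapped vehicle, at 90.1% to 107.8%. The high-dose kidneys ranged from 65.8% to 83.4%. Over all transcripts with at least 1 CPM in vehicle, the median at 8 h was 98.2% to 103.5% at the low dose. In vehicle kidneys it was 93.4% to 103.75%, which overlapped. At 24 h, it was 98.03% to 109.9% at the low dose, 99.6% to 111.3% at the high dose, and 96.9% to 101.3% in vehicle. The overlap at 24 h is in CPM, which is not adjusted for such a shift.

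In the heart, medians were nearer to 0 and calls were rare. At 8 h after the high dose, 0 of 123 tested were called lower by edgeR and by DESeq2, as were 0% of all 17519 tested, and 12 were lower at an unadjusted p-value under 0.05 (9.76%, against 4.39% of all tested) and 6 higher. At 24 h, 2 of 127 were called lower, 1.57%, against 0.245% of all 17574 tested, with a median of -0.16. There, 26 (20.5%) were lower and 8 higher at an unadjusted p-value under 0.05, against 9.99% of all tested that were lower. The median over the transcripts was 83.1% to 88.9% of the vehicle mean in these hearts and 93.7% to 102.7% in vehicle hearts, without overlap. Over all transcripts with at least 1 CPM in vehicle, it was 96.7% to 99.2% and 97.5% to 102.1%. The low dose gave 0 calls of 125 tested at 8 h and 0 of 127 at 24 h by both tools, with 0% of all tested by edgeR at either time. At an unadjusted p-value under 0.05, 3 (2.40%) and 12 (9.45%) were lower at the low dose, against 1.87% and 3.98% of all tested, and 2 and 4 were higher. Low levels limited what could be tested in this organ, where 35 of the 162 did not pass the filter on low counts at 24 h after the high dose. Their part in the few calls was not tested.

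Both called heart transcripts were among the few that are highest in the heart. ENSRNOT00000083303 had 128, 162, 139, 109.9, and 94.4 CPM in vehicle hearts at 24 h, 73.4, 78.8, 63.1, 93.7, and 77.8 CPM at the low dose, and 64.3, 54.8, 74.5, 78.9, and 61.9 CPM at the high dose (-0.90 ± 0.15 at the high dose, edgeR adjusted p = 0.0051). ENSRNOT00000086232 had 149.7, 177, 139.6, 110.1, and 112 CPM in vehicle hearts and 73.7, 60.1, 79.2, 76.5, and 75.1 CPM at the high dose (-0.90 ± 0.13, edgeR adjusted p = 0.0030). High-dose hearts were below all vehicle hearts for both transcripts. Leaving out the first, the second, or the third vehicle heart or the second high-dose heart left neither called, and the interval covariate left 1.

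**Figure D5:**
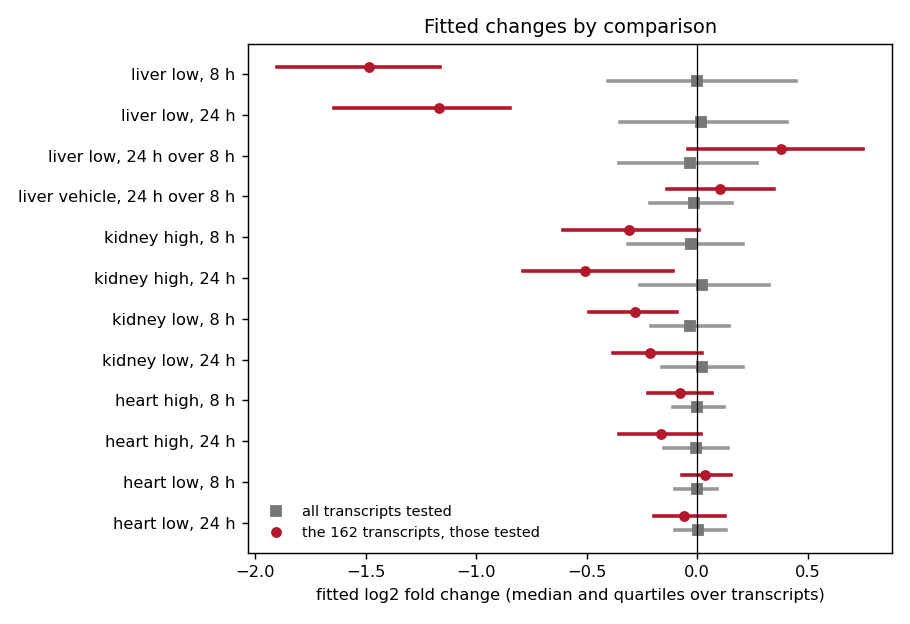
Fitted log2 fold changes (x axis) in each comparison (y axis), shown as the median (symbol) and quartiles (line) over the 162 transcripts that were tested (red circles) and over all transcripts tested (grey squares). The medians of the 162 run from -1.48 in the liver at 8 h after the low dose to 0.38 between 24 h and 8 h at the low dose, and in the heart they stay between -0.16 and 0.04.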

How the data were processed

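Poly-A RNA of 90 samples was sequenced as read pairs. Per the submitters' processing notes, the authors quantified the reads with kallisto 0.42.2 against Rnor_6.0 and deposited, for each of 65166 targets, an estimated count that is not normalized, a TPM scaled by target length, and target lengths. Groups came from the labels, which give no replicate numbers. The 40071 transcripts were used without the 25095 genomic intervals. CPM was computed here from the estimated counts of the transcripts, and TPM served only in an alternative selection. The vehicle level of an organ is the mean over both times.

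Tests used estimated counts rounded to whole numbers in R 4.3.3 with edgeR 4.0.16 (default filter on low counts, TMM scaling, quasi-likelihood test, Benjamini-Hochberg adjustment over all transcripts tested), 5 samples against 5, or 4 vehicle livers at 24 h. DESeq2 1.42.0 was an alternative. The test was checked on simulated counts with 200 changed transcripts. Errors are SE of the fit. Tables and plots were made in Python 3.11.15 with pandas 2.3.3 and matplotlib 3.10.9.

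The transcripts and the naming rule were chosen with earlier results of these data known. Named transcripts are the extremes of each order or comparison. The rule allowed more, but since identifiers could not be paired with genes, at most 2 in each direction are given, apart from those added where a statement turned on them. Lists of organ markers and pathways and promoter motifs need gene names and were not applied.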

Additional observations from a re-analysis of the deposited data

Results flagged for a closer look

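One of the 5 vehicle livers at 24 h (MS-1) was far from the others in the summed level of the 162 transcripts, at 5848 CPM against 11021 to 12528 CPM, a gap of 0.774 of the group's range where 0.71 is the critical value for 5 samples. For values that were not selected, such a gap arises by chance in about 1 group in 20, and 1 of 18 groups had one. The 162 were chosen on the mean of the 4 other vehicle livers, with MS-1 left out. That favours a lower sum in MS-1, so the rate does not apply to this gap. MS-1 is the library whose counts match those of a low-dose liver at 8 h. Its median of 34.4% of the vehicle mean lay outside the 85.1% to 107.8% of the 4 other vehicle livers, and none of the 162 transcripts was above all of them. Its summed level lay within the 5770 to 7693 CPM of the low-dose livers at 8 h, which include its match. Its median over all transcripts, 120.8%, lay outside the 91.8% to 108.02% of the other vehicle livers and within the 117% to 127% of the low-dose livers at 8 h. Its label was kept as given, and it was left out of the tests.

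The low-dose effect in the liver differed between 24 h and 8 h, by the interaction test, for 3 transcripts. Both vehicle groups helped to choose the transcripts, so this is no independent check. The levels that follow are in CPM, not adjusted for the shift over all transcripts at the low dose. For ENSRNOT00000067042, the difference was 1.47 on the log2 scale (edgeR adjusted p = 0.0063). Its vehicle livers at 8 h had 54.3, 70.6, 75.02, 78.004, and 62.2 CPM, and the low-dose livers had 11.8, 20.4, 14.02, 22.2, and 21.4 CPM. At 24 h, vehicle livers had 45.5, 67.9, 54.1, and 52.3 CPM and low-dose livers an overlapping 46.4, 33.6, 53.5, 48.7, and 45.7 CPM. For ENSRNOT00000027432, the difference was 1.22 (edgeR adjusted p = 0.0036), with the values given for it in the report. For ENSRNOT00000001243, it was 1.002 (edgeR adjusted p = 0.0059), with 20.2, 20.4, 20.5, 18.2, and 20.6 CPM in vehicle and 6.42, 9.86, 7.65, 9.01, and 7.92 CPM in low-dose livers at 8 h. At 24 h, ENSRNOT00000001243 had 16.2, 15.8, 17.2, and 19.3 CPM in vehicle and 13.8, 13.2, 16.4, 19.4, and 16.7 CPM in low-dose livers, which overlapped.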

How the results depend on the processing

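Of 62 alternatives other than leaving out a sample, 45 gave a count within 1.5 times the reported one. Keeping MS-1 lowered the low-dose liver count at 24 h from 89 to 3 and the interaction count from 3 to 0. DESeq2 gave 17 in place of 10 for the kidney at 8 h after the high dose, 2 and 6 in place of 0 for the low-dose kidney at 8 and 24 h, 10 in place of 3 for the interaction, and 20 in place of 13 for the rise between the times. All 3 doses in one fit gave 2 for the low-dose kidney at both times, the covariate for library number gave 1 at 8 h, and no limit on the fold change gave 2 at 8 h. No limit on the fold change also gave 9 in place of 2 for the high-dose heart at 24 h and 21 in place of 13 for the rise between the times. A pseudocount of 0.1 CPM gave 300 transcripts, trimmed from 359, of which 156 were among the 162. Under a covariate for the interval share, chosen after seeing the data, the low-dose liver count at 24 h was 16, the rise between the times 8, and the high-dose heart count at 24 h 1. The causes were not tested.

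Leaving out each sample gave at most 118 called lower in the low-dose liver at 8 h, always within 1.5 times the reported count, and 59 to 98 at 24 h, 4 to 17 and 15 to 28 in the high-dose kidney, 0 to 1 and 0 to 2 in the low-dose kidney, and 0 to 0 and 0 to 3 in the high-dose heart. It gave 9 to 17 for the rise between the times, 1 to 5 for the interaction, and 159 to 201 transcripts by the selection. TMM-scaled CPM selected 177 (148 shared), TPM 156 (110 shared), and MS-1 kept 139. No paired analysis was possible because the labels give no replicate numbers and do not say that neighbouring library numbers mark a pair. A block for such sets, added after seeing the data, gave 111 in the low-dose liver at 8 h. In the high-dose hearts at 24 h, 12 to 23 of the 162 had no count, where the median vehicle level was 3.84 CPM.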
